A study of Arabidopsis thaliana with 18 samples.

Results

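The gibberellin oxidase genes described here are 10 genes of Arabidopsis, taken from the 34218 genes of the count table by their locus codes: the gibberellin (GA) 20-oxidases GA20ox1, GA20ox2 and GA20ox3, the GA 3-oxidases GA3ox1 and GA3ox2, and the GA 2-oxidases GA2ox1, GA2ox2, GA2ox6, GA2ox7 and GA2ox8. The rule used no measured value, although the genes were chosen with earlier results of these data known. Of the 10, 9 passed the filter on low counts, which kept 23539 genes in all. RNA was sequenced from immature zygotic embryo (IZE) explants of the Columbia-0 genotype at the cotyledonary stage. Explants were cultured for 5 or 10 d on E0 (basal medium with no inducer, on which they grow into seedlings), on ET (the same medium with 1 µM trichostatin A, TSA, an inhibitor of histone deacetylases) or on EA (with 5 µM 2,4-D, a synthetic auxin). ET and EA both induce somatic embryogenesis, and each of the 6 combinations of medium and day had 3 libraries, a, b and c, described as biological replicates. A library was made from many pooled explants, so each value is an average over explants and over the tissues within them.

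Gibberellins are plant hormones that promote germination, elongation growth and the end of the embryonic phase. The last steps of synthesis are carried out by 2 families of soluble dioxygenases: the GA20ox enzymes oxidise inactive precursors step by step, and the GA3ox enzymes then form the bioactive hormone. The GA2ox enzymes inactivate gibberellins, GA2ox7 and GA2ox8 by acting on earlier precursors than the other members. In seedlings, bioactive gibberellin is known to lower the transcripts of several GA20ox and GA3ox genes and to raise those of GA2ox genes through the GID1 receptors and the DELLA repressors.

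In RefSeq's annotation of the TAIR10.1 assembly the 20-oxidase genes lie at chr4:12990851-12992585 (GA20ox1, AT4G25420), chr5:21055179-21056881 (GA20ox2, AT5G51810) and chr5:2243553-2245339 (GA20ox3, AT5G07200). The 3-oxidase genes lie at chr1:5344388-5346342 (GA3ox1, AT1G15550) and chr1:30200466-30202349 (GA3ox2, AT1G80340). The 2-oxidase genes lie at chr1:29511561-29513100 (GA2ox1, AT1G78440), chr1:10537457-10540044 (GA2ox2, AT1G30040), chr1:486800-489651 (GA2ox6, AT1G02400), chr1:18889473-18891838 (GA2ox7, AT1G50960) and chr4:11302682-11306770 (GA2ox8, AT4G21200). Their exons, merged over transcripts, spanned 1206 to 2382 bp, overlapped no exon of another gene on either strand (0% of bases), and held no stretch of 76 bases, the read length, that occurs elsewhere in the assembly (0%).

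The 300 bases before the annotated start were read from the genome and searched on both strands for CATGCA (the RY element, bound by embryo factors of the B3 family), TGTCTC and TGTCGG (auxin response elements), CACGTG (the G-box) and TAACAAA (a gibberellin response element). The sequences of 5 members are shown, 5′ to 3′ on the strand of the gene. GA3ox1, GA2ox1 and GA2ox6 are shown for the highest correlations of level among the members, although GA3ox1 and GA2ox1 had few counts on ET and EA. GA20ox2 and GA2ox6 are shown because they hold the same match, and GA2ox8 because it holds 2 different matches. Capitals mark the matches.
GA20ox2 (chr5:21056882-21057181, minus strand): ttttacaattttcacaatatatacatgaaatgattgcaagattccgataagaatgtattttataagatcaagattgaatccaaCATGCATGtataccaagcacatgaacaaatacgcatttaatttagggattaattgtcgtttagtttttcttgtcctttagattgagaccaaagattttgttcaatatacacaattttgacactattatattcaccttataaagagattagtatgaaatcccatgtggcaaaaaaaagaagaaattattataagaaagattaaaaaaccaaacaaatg
GA3ox1 (chr1:5346343-5346642, minus strand): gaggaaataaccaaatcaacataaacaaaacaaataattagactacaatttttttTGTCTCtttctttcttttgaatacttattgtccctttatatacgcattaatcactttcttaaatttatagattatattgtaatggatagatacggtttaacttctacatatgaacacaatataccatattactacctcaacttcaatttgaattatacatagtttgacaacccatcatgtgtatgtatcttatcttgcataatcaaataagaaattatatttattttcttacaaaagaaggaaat
GA2ox1 (chr1:29513101-29513400, minus strand): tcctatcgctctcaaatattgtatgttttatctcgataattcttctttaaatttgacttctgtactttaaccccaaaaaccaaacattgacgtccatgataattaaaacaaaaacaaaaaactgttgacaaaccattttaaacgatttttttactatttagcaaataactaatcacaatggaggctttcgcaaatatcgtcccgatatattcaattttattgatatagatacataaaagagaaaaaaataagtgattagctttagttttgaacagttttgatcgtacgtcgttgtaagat
GA2ox6 (chr1:486500-486799, plus strand): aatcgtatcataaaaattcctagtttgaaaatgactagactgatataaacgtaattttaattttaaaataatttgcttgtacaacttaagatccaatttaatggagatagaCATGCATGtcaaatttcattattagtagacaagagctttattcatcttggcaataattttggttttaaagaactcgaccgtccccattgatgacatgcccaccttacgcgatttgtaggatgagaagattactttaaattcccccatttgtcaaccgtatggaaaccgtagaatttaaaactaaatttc
GA2ox8 (chr4:11302382-11302681, plus strand): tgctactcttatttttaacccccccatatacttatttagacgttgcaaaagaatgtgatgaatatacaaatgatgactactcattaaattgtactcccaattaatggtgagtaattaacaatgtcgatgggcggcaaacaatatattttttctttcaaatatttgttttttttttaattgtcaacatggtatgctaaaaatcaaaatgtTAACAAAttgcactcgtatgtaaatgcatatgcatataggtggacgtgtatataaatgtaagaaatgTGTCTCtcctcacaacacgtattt
In GA20ox2 and GA2ox6 2 copies of CATGCA on opposite strands overlap as CATGCATG, beginning 217 and 189 bases before the start. Of 27443 promoters of protein-coding genes of the same length, 10.3% held CATGCA and 0.955% the octamer, which was looked up after the matches had been seen. TGTCTC was found in GA3ox1 and GA2ox8 and in 13% of all promoters, and TAACAAA in GA2ox8 and in 19.2%. The other 6 members (GA20ox1, GA20ox3, GA3ox2, GA2ox1, GA2ox2 and GA2ox7) held no match in this window. No member held CACGTG or TGTCGG, which were present in 7.09% and 4.91% of promoters. A match of letters is a description of the sequence and was not tested for binding.

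The libraries held 9098758 to 58364735 counts. Levels are given as CPM, the counts per 1000000 of a library whose size was scaled by edgeR's TMM method, and the detection floor of 3 counts lay at 0.0487 to 0.329 CPM depending on the library, for counting error only. Seed storage transcripts (5 genes, summed) stood at 80851 to 126480 CPM on E0, 21797 to 35229 on ET and 23771 to 36562 on EA at 5 d, and at 102070 to 173040, 72203 to 116780 and 19355 to 31297 CPM at 10 d. The 3 green tissue markers summed to 940 to 1872 CPM on E0, 1435 to 4197 on ET and 552 to 1025 on EA. A list of 3 root hair genes (EXPA7, COBL9 and RSL4) summed to 78.0 to 91.1 CPM in E0 at 5 d and 24.8 to 36.7 CPM at 10 d, but to 0.455 to 6.30 CPM in ET and 0.449 to 3.05 CPM in EA. A list of 7 endosperm genes summed to 21.0 to 57.0 CPM in ET and to at most 6.71 CPM in E0 and EA, with FIS2 at the floor in every group but EA at 10 d and FWA in every group but EA at 5 d. IKU2 was at the floor in ET at 5 d and EA at 10 d, RGE1 in every E0 and EA group, and WRKY10 in E0 at 5 d. The 5 seed coat genes summed to at most 1.01 CPM outside ET at 10 d, where they reached 3.40 to 7.67 CPM. ET and EA are compared with the same E0 libraries below, so the 2 comparisons are not independent.

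**Figure D1:**
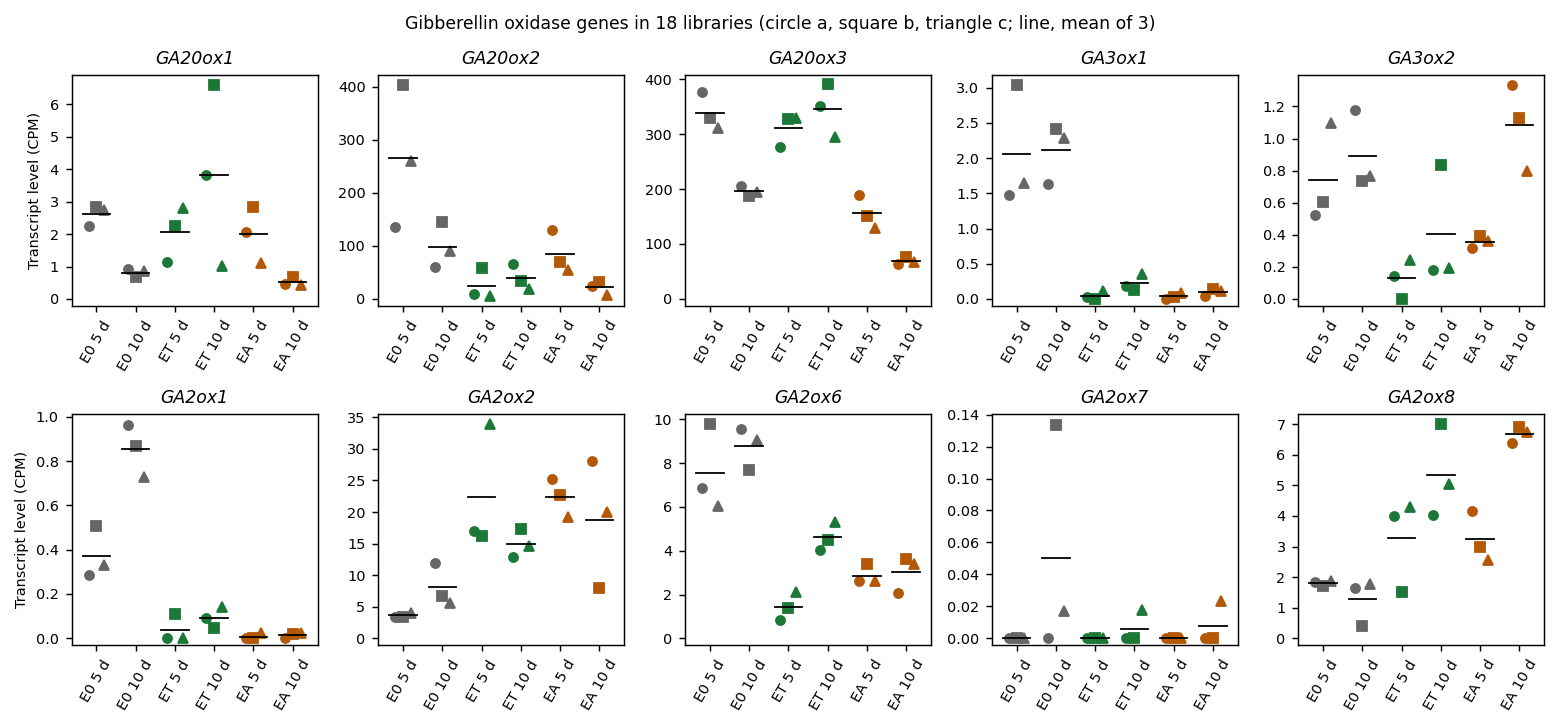
Transcript level (CPM, linear axis from 0, own scale in each panel) of the 10 genes in the 18 libraries, with circles, squares and triangles for replicates a, b and c and a line for the mean of 3. GA3ox1 and GA2ox1 lay near 0 in every ET and EA library, GA2ox2 was lowest in E0 at 5 d, and GA20ox2 spread over a wide range within most groups.

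The first question was which of these genes differed between the embryogenic media and E0. At 5 d on ET, 5 of the 9 tested genes were lower than on E0 (GA20ox2, GA3ox1, GA3ox2, GA2ox1 and GA2ox6) and 1 was higher (GA2ox2), while 21.5% of all tested genes were lower and 23.8% higher. At 10 d on ET, 3 were lower (GA3ox1, GA2ox1 and GA2ox6, background 20%) and 3 higher (GA20ox1, GA20ox3 and GA2ox8, background 18%). At 5 d on EA, 4 were lower (GA20ox3, GA3ox1, GA2ox1 and GA2ox6, background 20.8%) and 1 was higher (GA2ox2, background 19%). At 10 d on EA, 5 were lower (GA20ox2, GA20ox3, GA3ox1, GA2ox1 and GA2ox6, background 25%) and 2 higher (GA2ox2 and GA2ox8, background 24.2%). The median log2 fold change of the 9 genes was -2.13, -0.92, -1.11 and -1.50 in these 4 comparisons, beside medians of 0.07, 0.01, 0.02 and 0.09 over all tested genes. GA3ox1 and GA2ox1 passed the filter on low counts through their E0 libraries, so against E0 they could hardly be called other than lower. Both are among the lower genes, and in the median, of all 4 comparisons. A gene was called at an adjusted p under 0.05 in the quasi-likelihood test of edgeR, with p-values adjusted over all tested genes after Benjamini and Hochberg. Whole explants were sequenced, so fewer cells that express a gene and less RNA per cell cannot be told apart.

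**Figure D2:**
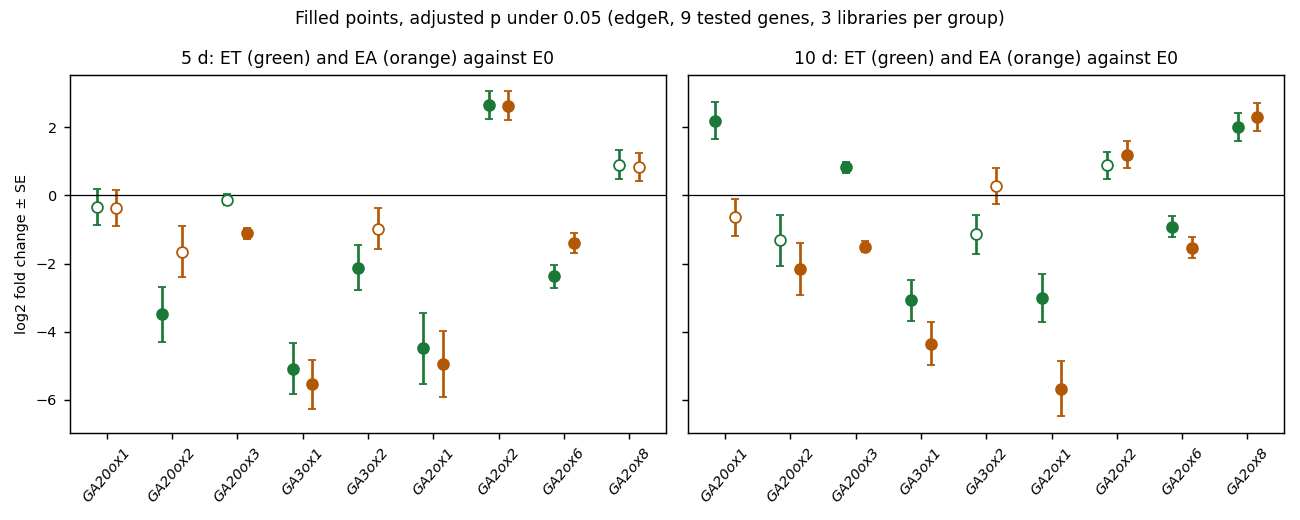
Log2 fold change ± SE of ET (green) and EA (orange) against E0 at 5 d (left) and 10 d (right) for the 9 tested genes. Filled points passed an adjusted p of 0.05. GA3ox1 was lower in all 4 comparisons (log2 -5.55 to -3.08), and GA20ox3 was higher on ET and lower on EA at 10 d.

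Of the 20-oxidases, GA20ox3 had the steadiest levels between replicates. It stood at 377, 329 and 311 CPM in the E0 libraries a, b and c at 5 d and at 205, 187.5 and 194 CPM at 10 d. On ET it stood at 276, 328 and 329 CPM at 5 d and at 351, 392 and 295 CPM at 10 d. On EA it was 189, 151 and 130 CPM at 5 d and 63.5, 76.1 and 67.2 CPM at 10 d. The E0 and EA libraries thus did not overlap on either day, the ET and E0 libraries overlapped at 5 d, and at 10 d all ET libraries lay above all E0 libraries. GA20ox3 was lower on EA than on E0 by log2 -1.11 ± 0.16 (SE, n = 3 per group, adjusted p = 3.56e-05, edgeR) at 5 d and by -1.50 ± 0.16 (adjusted p = 1.52e-06, edgeR) at 10 d. On ET the difference was -0.12 ± 0.16 (adjusted p = 0.552, edgeR) at 5 d and 0.82 ± 0.16 (adjusted p = 0.000674, edgeR) at 10 d, 1.77-fold higher than E0. The seed storage and green tissue lists given above also differed between the media, and their part in the levels of GA20ox3 and of GA20ox2 was not tested.

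GA20ox2, which in plants is most active in inflorescences and siliques, spanned the widest range of the family in CPM. Its E0 libraries a, b and c held 136, 403 and 260 CPM at 5 d and 60.3, 144 and 89.9 CPM at 10 d. The ET libraries held 8.93, 59.1 and 5.42 CPM at 5 d and 65.1, 33.7 and 19.5 CPM at 10 d. The EA libraries held 130.5, 69.7 and 54.8 CPM at 5 d and 24.6, 32.9 and 8.31 CPM at 10 d. All ET libraries lay below all E0 libraries at 5 d and all EA libraries below them on both days, whereas ET and E0 overlapped at 10 d. GA20ox2 was 11.2-fold lower on ET at 5 d (log2 -3.49 ± 0.81, SE, adjusted p = 0.0022, edgeR) and 4.46-fold lower on EA at 10 d (log2 -2.16 ± 0.76, adjusted p = 0.027, edgeR). Without ET 5 d b the difference on ET at 5 d was log2 -5.21 (36.9-fold lower, adjusted p = 7.21e-05, edgeR). The other differences were -1.32 ± 0.75 on ET at 10 d (adjusted p = 0.182, edgeR) and -1.65 ± 0.75 on EA at 5 d (adjusted p = 0.0917, edgeR). The call on EA at 10 d ended when E0 10 d b, EA 10 d a or EA 10 d c was left out, with log2 differences of -2.25 to -1.77 and adjusted p of 0.0544 to 0.0933 by edgeR.

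Depth moved with the level of GA20ox2 in part of the groups. In 4 of the 6 groups the library with the fewest counts had the highest level, and in EA at 10 d it had the lowest. The library with the most counts had the lowest level in 3 of the 6 groups. Of the shallow libraries at 5 d, E0 b with 10679746 counts held 403 CPM and ET b with 9653802 held 59.1 CPM. The shallowest, E0 c with 9098758 counts, held 260 CPM. Of the deep ones, E0 a with 45361683 held 136 CPM, and ET a and c with 41603798 and 45273524 held 8.93 and 5.42 CPM. With the log of the library total as a covariate, an alternative added after this was seen, GA20ox2 was also lower on ET at 10 d (log2 -1.79, adjusted p = 0.0108, edgeR) and lower on ET than on EA at 5 d (log2 -2.78, adjusted p = 0.000988, edgeR). The calls on ET at 5 d and on EA at 10 d were kept with it, and EA at 5 d was still not called. Depth differed between the media, with 9098758 counts in the shallowest E0 library, 9653802 on ET and 29261617 on EA. The part of depth in these levels was not tested otherwise.

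**Figure D3:**
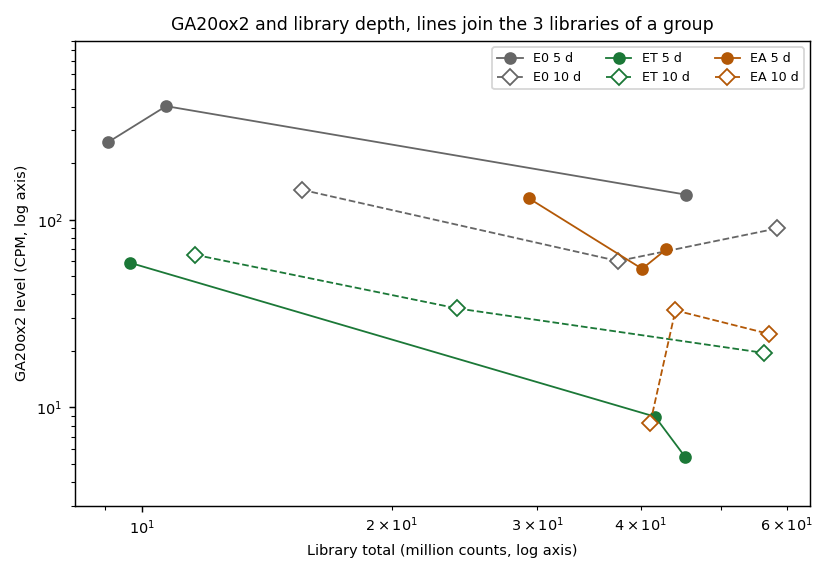
GA20ox2 level (CPM, log axis) against the library total (log axis) in the 18 libraries, with lines joining the 3 libraries of a group, filled circles for 5 d and open diamonds for 10 d. In 4 of the 6 groups the shallowest library is the highest.

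GA20ox1, known for its part in stem elongation, had group means of 0.524 to 3.82 CPM. At 10 d its libraries held 0.912, 0.669 and 0.848 CPM on E0, 3.83, 6.61 and 1.01 CPM on ET, and 0.455, 0.672 and 0.445 CPM on EA. All ET libraries lay above those of both other media at 10 d, although ET c was close to E0. ET was 4.58-fold higher than E0 at that time (log2 2.20 ± 0.55, SE, adjusted p = 0.00443, edgeR), and 2.78-fold higher without ET 10 d b (log2 1.48, adjusted p = 0.0479, edgeR), while EA differed by -0.65 ± 0.55 (adjusted p = 0.344, edgeR). At 5 d the 3 media overlapped, with group means of 2.61 ± 0.31 CPM on E0, 2.07 ± 0.84 on ET and 2.00 ± 0.87 on EA (SD, n = 3), and neither difference from E0 passed (adjusted p = 0.635 on ET and 0.608 on EA, edgeR).

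GA3ox1, a main 3-oxidase of vegetative tissue and of the embryo axis, was low on E0 and close to the floor on both inducing media. Its E0 libraries held 1.47, 3.03 and 1.65 CPM at 5 d and 1.64, 2.41 and 2.29 CPM at 10 d. At 5 d the ET libraries had 1, 0 and 4 counts and the EA libraries 0, 1 and 4 counts. At 10 d the ET libraries reached 0.183, 0.132 and 0.356 CPM and the EA libraries 0.0487, 0.138 and 0.117 CPM. Every ET and EA library lay below every E0 library. Since GA3ox1 passed the filter on low counts through its E0 libraries, a test against E0 could hardly find it other than lower. The log2 fold changes were -5.09 ± 0.75 on ET and -5.55 ± 0.73 on EA at 5 d (SE, adjusted p = 4.00e-05 and 1.29e-05, edgeR) and -3.08 ± 0.61 and -4.36 ± 0.63 at 10 d (adjusted p = 0.000762 and 2.97e-05, edgeR). Each of these 4 calls was kept in every alternative tried, but with so few counts the size depended on single libraries. It was -6.47 on ET at 5 d without ET 5 d c, -6.98 on EA at 5 d without EA 5 d c and -3.85 on ET at 10 d without ET 10 d c. The summed root hair genes given above were lower in the same media, and their part in this difference was not tested. On E0 the mean of GA3ox1 was 2.05 CPM at 5 d and 2.11 CPM at 10 d.

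GA3ox2, the partner of GA3ox1 in germinating seeds, had another pattern. Its libraries held 0.523, 0.607 and 1.10 CPM on E0 at 5 d and 1.18, 0.736 and 0.763 CPM at 10 d. On ET they held 0.144, 0 and 0.244 CPM at 5 d and 0.183, 0.838 and 0.196 CPM at 10 d. On EA they held 0.320, 0.394 and 0.358 CPM at 5 d and 1.33, 1.13 and 0.796 CPM at 10 d. All ET and EA libraries lay below those of E0 at 5 d, and at 10 d all 3 media overlapped. The ET difference at 5 d was log2 -2.13 ± 0.66 (SE, adjusted p = 0.0149, edgeR), and it rested on few counts (15 over the 3 ET libraries). It was no longer called without E0 5 d c or ET 5 d a, with log2 differences of -2.03 to -1.78 and adjusted p of 0.053 to 0.0592 by edgeR. Differences of -0.97 ± 0.59 on EA at 5 d, -1.14 ± 0.58 on ET at 10 d and 0.27 ± 0.52 on EA at 10 d did not pass (adjusted p = 0.209, 0.136 and 0.685, edgeR). The ET difference at 10 d passed without ET 10 d b (log2 -2.21, adjusted p = 0.0106, edgeR).

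Among the 2-oxidases, GA2ox2, known for its part in holding back germination of imbibed seeds, was the one called higher at 5 d. Its E0 libraries held 3.35, 3.44 and 4.06 CPM at 5 d and 11.9, 6.76 and 5.65 CPM at 10 d. The ET libraries held 17.0, 16.2 and 34.0 CPM at 5 d and 12.9, 17.3 and 14.7 CPM at 10 d. The EA libraries held 25.2, 22.7 and 19.2 CPM at 5 d and 28.1, 7.97 and 19.9 CPM at 10 d. At 5 d all ET and EA libraries lay above all E0 libraries. At 10 d the ET libraries still did, and EA b fell within the range of E0. GA2ox2 was 6.28-fold higher on ET (log2 2.65 ± 0.42, SE, adjusted p = 8.45e-05, edgeR) and 6.22-fold higher on EA (log2 2.64 ± 0.42, adjusted p = 9.24e-05, edgeR) at 5 d. At 10 d the differences were 0.88 ± 0.39 on ET (adjusted p = 0.0841, edgeR) and 1.20 ± 0.38 on EA (adjusted p = 0.0163, edgeR). The EA call at 10 d ended without E0 10 d b, E0 10 d c or EA 10 d a, with log2 differences of 0.78 to 1.09 and adjusted p of 0.059 to 0.107 by edgeR, and the ET difference passed without E0 10 d a (log2 1.28, adjusted p = 0.0291, edgeR).

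GA2ox6, described in Arabidopsis as a direct target of the embryo MADS-box factor AGL15, was lower on both inducing media. Its E0 libraries held 6.87, 9.81 and 6.03 CPM at 5 d and 9.58, 7.70 and 9.04 CPM at 10 d. ET libraries held 0.838, 1.40 and 2.11 CPM at 5 d and 4.02, 4.50 and 5.32 CPM at 10 d, and EA libraries 2.60, 3.38 and 2.60 CPM at 5 d and 2.08, 3.64 and 3.42 CPM at 10 d. No ET or EA library overlapped with E0 on either day, and ET was the lowest medium at 5 d. The log2 fold changes against E0 were -2.38 ± 0.33 on ET and -1.40 ± 0.31 on EA at 5 d (SE, adjusted p = 2.30e-05 and 0.00162, edgeR). At 10 d they were -0.92 ± 0.30 on ET and -1.53 ± 0.30 on EA (adjusted p = 0.0235 and 0.000532, edgeR). The ET call at 10 d ended without E0 10 d a, E0 10 d c, ET 10 d a or ET 10 d b, with log2 differences of -0.90 to -0.83 and adjusted p of 0.0605 to 0.0798 by edgeR. The root hair genes were lower in the same media, and their part in this difference was not tested. On E0 the mean of GA2ox6 was 7.57 CPM at 5 d and 8.77 CPM at 10 d.

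GA2ox1 was detected mainly on E0. Its libraries held 0.285, 0.506 and 0.329 CPM on E0 at 5 d and 0.966, 0.870 and 0.729 CPM at 10 d. The 12 ET and EA libraries had at most 1 count each except ET 10 d c, which had 8. All of them lay below all E0 libraries of the same day. At 5 d the 1 count of ET against the 20 of E0 gave a ratio 28.8-fold lower (95% exact binomial interval 4.61 to 1194, counting error only), and the 1 count of EA one 40.6-fold lower (6.49 to 1683). At 10 d the 2 counts of EA against the 92 of E0 gave a ratio 64.1-fold lower (17.2 to 537). The ET difference at 10 d was log2 -3.01 ± 0.69 (SE, adjusted p = 0.00249, edgeR), or -3.81 without ET 10 d c, and the other 3 comparisons passed as well (adjusted p = 0.00207, 0.000627 and 2.53e-05 for ET at 5 d, EA at 5 d and EA at 10 d, edgeR). As GA2ox1 passed the filter on low counts only through its E0 libraries, these tests could hardly find it other than lower. The root hair genes were lower on ET and EA here too, and their part was not tested. On E0 the mean of GA2ox1 was 0.373 CPM at 5 d and 0.855 CPM at 10 d, a difference that did not pass (adjusted p = 0.2, edgeR).

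GA2ox8, one of the members that act on early precursors, was higher on both inducing media at 10 d. Its E0 libraries held 1.64, 0.402 and 1.78 CPM at 10 d, the ET libraries 4.02, 7.01 and 5.04 CPM and the EA libraries 6.38, 6.90 and 6.74 CPM. All ET and EA libraries thus lay above all E0 libraries. ET was 4.00-fold higher (log2 2.00 ± 0.42, SE, adjusted p = 0.00116, edgeR) and EA 4.96-fold higher (log2 2.31 ± 0.42, adjusted p = 0.000228, edgeR). At 5 d the E0 libraries held 1.83, 1.72 and 1.87 CPM, the ET libraries 4.00, 1.51 and 4.28 CPM and the EA libraries 4.17, 2.99 and 2.55 CPM. ET overlapped with E0 at 5 d and EA did not. Differences of 0.90 ± 0.43 on ET and 0.84 ± 0.42 on EA did not pass at that time (adjusted p = 0.0956 and 0.13, edgeR), and the former did without ET 5 d b (log2 1.20, adjusted p = 0.0249, edgeR). GA2ox7, its closest partner in function, had 5 counts in all 18 libraries, at most 2 in any one, and was not tested.

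ET and EA were also compared with each other. At 5 d 2 of the 9 genes differed (36.5% of all tested genes), and at 10 d 3 (32%). GA20ox3 was higher on ET on both days, by log2 0.99 ± 0.16 at 5 d (SE, adjusted p = 0.000175, edgeR) and by 2.33 ± 0.17 at 10 d (5.02-fold, adjusted p = 8.64e-08, edgeR). GA20ox1 was 7.16-fold higher on ET at 10 d (log2 2.84 ± 0.55, adjusted p = 0.000962, edgeR), and 4.34-fold without ET 10 d b. GA2ox6 was lower on ET at 5 d (log2 -0.98 ± 0.32, adjusted p = 0.0247, edgeR), a call that ended without EA 5 d b, ET 5 d a or ET 5 d b (log2 -0.96 to -0.65, adjusted p = 0.0528 to 0.12, edgeR). GA2ox1 was higher on ET at 10 d (log2 2.66 ± 0.95, adjusted p = 0.0413, edgeR) with 10 counts on ET and 2 on EA, and this call ended without ET 10 d a, ET 10 d c or any EA 10 d library (log2 1.91 to 3.07, adjusted p = 0.0576 to 0.307, edgeR). It was also lost with library totals, no filter, depth as a covariate and DESeq2 (adjusted p = 0.0506, 0.0618, 0.0566 and 0.0543), and held in 2 of 12 alternatives. GA2ox2 had nearly the same mean on ET and EA at 5 d, 22.4 ± 10.07 and 22.3 ± 3.0 CPM (SD, n = 3). GA20ox2 was lower on ET than on EA at 5 d without ET 5 d b (log2 -3.56, adjusted p = 0.00131, edgeR), and with all libraries the difference was -1.84 ± 0.76 (adjusted p = 0.0693). GA3ox2 was lower on ET at 10 d without ET 10 d b (log2 -2.48, adjusted p = 0.00641, edgeR), and with all libraries it was -1.41 ± 0.57 (adjusted p = 0.0679).

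Between 5 and 10 d, 2 genes changed on E0 (background 17.5%), 1 on ET (20.5%) and 2 on EA (13.1%). GA20ox3 was lower at 10 d on E0 by log2 -0.79 ± 0.16 (SE, adjusted p = 0.00284, edgeR) and on EA by -1.18 ± 0.16 (adjusted p = 0.000183, edgeR), and on ET it differed by 0.15 ± 0.16 (adjusted p = 0.521, edgeR). GA20ox1 was lower at 10 d by log2 -1.65 ± 0.55 on E0 (adjusted p = 0.0492, edgeR) and by -1.92 ± 0.54 on EA (adjusted p = 0.0267, edgeR). The E0 call for GA20ox1 ended when any 1 of the 6 libraries was left out (log2 -1.76 to -1.55, adjusted p = 0.0842 to 0.124, edgeR), and the EA call without EA 5 d a, EA 5 d b, EA 10 d a or EA 10 d c (log2 -1.90 to -1.57, adjusted p = 0.0687 to 0.114, edgeR). GA20ox2 differed on EA by -1.95 ± 0.76 (adjusted p = 0.104, edgeR), with all 10 d libraries below all 5 d libraries. GA2ox6 rose on ET by log2 1.67 ± 0.32 (3.19-fold, adjusted p = 0.00189, edgeR). On ET GA20ox2 and GA2ox1 passed without ET 5 d b (log2 2.45 and 4.95, adjusted p = 0.021 and 0.0231, edgeR), GA3ox1 without ET 5 d c (log2 3.46, adjusted p = 0.0477) and GA20ox1 without ET 10 d c (log2 1.37, adjusted p = 0.0484). For GA2ox1 this left ET 5 d a and c with 0 counts each, so its log2 of 4.95 has no measured size. For GA3ox1 it left ET 5 d a and b with 1 and 0 counts.

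The difference between the days in the effect of each medium was tested as an interaction. For ET, 4 of the 9 genes were called (background 14.3%). GA20ox3 and GA20ox1 moved upward relative to E0 from 5 to 10 d, by log2 0.95 ± 0.23 (SE, adjusted p = 0.0103, edgeR) and 2.53 ± 0.76 (adjusted p = 0.0354, edgeR). GA2ox6 moved upward by 1.46 ± 0.44 (adjusted p = 0.0359, edgeR) and GA2ox2 downward, by -1.77 ± 0.56 (adjusted p = 0.0449, edgeR). The GA20ox3 call was kept with each of the 12 libraries left out, whereas the other 3 calls rested on most of the libraries. That of GA20ox1 ended without any 1 library but ET 5 d c and ET 10 d c (log2 1.81 to 2.64, adjusted p = 0.0515 to 0.111, edgeR). That of GA2ox2 ended without any but E0 10 d c, ET 5 d a and ET 5 d b (log2 -1.89 to -1.33, adjusted p = 0.0505 to 0.132, edgeR), and that of GA2ox6 without any but E0 5 d c, ET 5 d c and ET 10 d a (log2 1.13 to 1.53, adjusted p = 0.0507 to 0.099, edgeR). For EA, 0 of the 9 genes were called by edgeR's quasi-likelihood test (background 8.81%), 0 by DESeq2, and 2 had an unadjusted p under 0.05 (GA2ox2 and GA2ox8). GA2ox2 passed for EA without EA 10 d a (log2 -1.86, adjusted p = 0.0416, edgeR), and GA20ox2 passed for ET without ET 5 d b (log2 3.89, adjusted p = 0.00821, edgeR).

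Levels of different genes were compared per kilobase (kb) of merged exon, as CPM per kb. The summed 20-oxidase level was 383 ± 73.3 CPM per kb (SD, n = 3) on E0 at 5 d and 185 ± 22.1 at 10 d. It was 211 ± 32.7 and 243 ± 40.1 CPM per kb on ET, and 153 ± 44.4 and 57.3 ± 10.8 on EA. EA at 10 d was thus the lowest group of the class. The 3-oxidases GA3ox1 and GA3ox2 summed to 1.86 ± 0.54 and 2.00 ± 0.105 CPM per kb on E0 at 5 and 10 d, 0.118 ± 0.119 and 0.425 ± 0.214 on ET, and 0.269 ± 0.0443 and 0.810 ± 0.168 on EA. The 2-oxidases summed to 8.07 ± 1.27 and 10.8 ± 2.18 CPM per kb on E0, 12.6 ± 5.24 and 13.0 ± 2.08 on ET, and 13.5 ± 1.81 and 14.4 ± 3.60 on EA. Of these sums over the 10 genes, that of the 20-oxidases was thus the largest and that of the 3-oxidases the smallest in every group. The other genes of each class are not in the sums. GA3ox3 held 1.49 and 0.453 CPM on E0, 0 and 0.235 on ET, and 0.761 and 1.27 on EA at 5 and 10 d. GA3ox4 held 0.0475 and 0.103 CPM on E0, 0.303 and 1.75 on ET, and at most 0.0078 on EA.

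Among the members, GA20ox3 led the 20-oxidases by mean share in all 6 groups. The largest part of the other sums, also by mean share, differed between E0 and EA. Single libraries departed from this. In E0 5 d b GA20ox2 held 55.6% and GA20ox3 44.0%, and in EA 10 d b GA2ox8 held 44.5% and GA2ox2 32.1%. GA20ox3 made up 56.7 ± 14.5% (SD, n = 3) of the 20-oxidase level per kb on E0 at 5 d and 66.5 ± 10.5% at 10 d, and 92.6 ± 7.57% and 89.0 ± 5.22% on ET. On EA it made up 64.7 ± 5.91% and 76.0 ± 10.6%. GA3ox1 held 71.6 ± 11.9% and 69.0 ± 10.4% of the sum of GA3ox1 and GA3ox2 on E0, and on EA GA3ox2 held 92.0 ± 10.07% and 91.2 ± 4.74%. On ET GA3ox2 held, of this sum of 2 genes, 78.2 ± 11.4% at 5 d over the 2 libraries with any count and 58.1 ± 25.9% at 10 d. Of the 2-oxidase level, GA2ox6 held 62.0 ± 6.52% and 54.9 ± 5.81% on E0, but 7.85 ± 2.59% and 23.9 ± 3.50% on ET and 14.3 ± 2.53% and 15.4 ± 7.68% on EA. GA2ox2 held 19.2 ± 4.21% and 30.9 ± 7.29% on E0, 74.2 ± 4.81% and 48.2 ± 1.57% on ET, and 69.6 ± 0.505% and 51.5 ± 17.97% on EA. At 10 d GA2ox8 held 7.69 ± 4.42% on E0, 27.3 ± 3.59% on ET and 33.0 ± 10.3% on EA. The E0 libraries did not overlap with those of ET or EA in the share of GA3ox2 at 5 d or of GA2ox6 on either day. These shares are a description and were not tested.

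**Figure D4:**
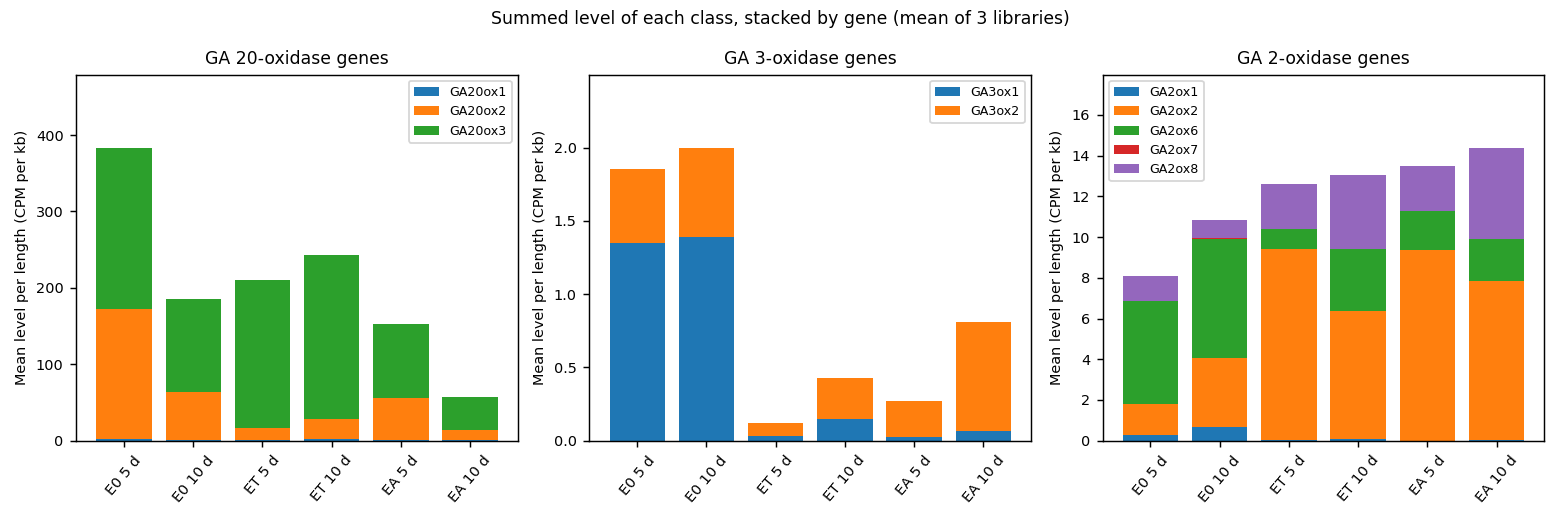
Mean level per length (CPM per kb of merged exon, mean of 3 libraries) of the 20-oxidase, 3-oxidase and 2-oxidase genes in the 6 groups, stacked by gene, each panel with its own axis from 0. The 20-oxidase sum is lowest on EA at 10 d (57.3), GA3ox1 nearly disappears from the sum of GA3ox1 and GA3ox2 on EA, and GA2ox2 takes the place of GA2ox6 as the largest part of the 2-oxidase sum on ET and EA.

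Some members had similar levels over the 18 libraries, which share the 6 groups and therefore are not independent points. Pearson's r of log2 CPM was 0.91 between GA3ox1 and GA2ox1, 0.88 between GA3ox1 and GA2ox6, and 0.81 between GA2ox1 and GA2ox6. It was 0.77 between GA20ox1 and GA20ox3, and lowest, at -0.84, between GA3ox1 and GA2ox2. Among all other tested nuclear genes, the 2 most like GA3ox1 were AT2G21045 (r = 0.98) and AT1G35330 (0.98), and the 2 most like GA2ox1 were AT2G01900 (0.97) and AT5G01250 (0.97). For GA20ox3 they were HYR1 (0.97) and AAH (0.96), and for GA20ox2 AT1G05550 (0.95) and AT1G15830 (0.93). For GA2ox2 they were AT3G54630 (0.93) and AT2G01990 (0.93), and for GA2ox8 AtPOT1a (0.92) and AT1G72410 (0.90). GA20ox1 was most like ALPHA DOX2 (0.84) and ARR15 (0.83), and GA3ox2 most like AT5G55380 (0.88) and RABH1e (0.87). All of these values are over 18 libraries. GA3ox1 and GA2ox1 lay near the counting floor in most ET and EA libraries, so each r with them rests mainly on the difference between E0 and those media.

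The other genes of the pathway were taken from a list of 38 genes. Their counts are to be read beside the shares of all tested genes that were higher and lower, 23.8 and 21.5% on ET at 5 d, 18 and 20% on ET at 10 d, 19 and 20.8% on EA at 5 d, and 24.2 and 25% on EA at 10 d. Of the 5 genes of early synthesis, 3 were higher and 1 was lower on ET at 5 d, and 4 were higher and 0 lower at 10 d. The median log2 fold change was 0.39 and 1.05, beside 0.07 and 0.01 over all genes. On EA 3 were higher at 5 d, and 4 higher and 1 lower at 10 d (medians 0.42 and 0.93, beside 0.02 and 0.09). CPS, which makes the first committed intermediate, moved most on ET. Its means were 6.24 ± 0.70 and 2.75 ± 1.34 CPM on E0 at 5 and 10 d, 51.9 ± 5.69 and 94.7 ± 17.1 on ET, and 19.3 ± 2.79 and 5.47 ± 1.52 on EA (SD, n = 3). The ET libraries, at 45.4 to 114 CPM, lay above all others, which reached at most 22.2 CPM. CPS was higher on ET by log2 3.07 ± 0.30 and 5.04 ± 0.33 (SE, adjusted p = 8.77e-07 and 3.60e-08, edgeR) and on EA by 1.64 and 0.93 (adjusted p = 0.000257 and 0.0131). The sum of the endosperm list was higher in the ET libraries too, though FIS2, FWA and, at 5 d, IKU2 were at the floor there. Its part in the level of CPS was not tested. KAO2, the oxidase that forms the first gibberellin, was higher in all 4 comparisons (log2 0.92 to 1.63), and KAO1, which catalyses the same step, was lower on ET at 5 d and on EA at 10 d (log2 -0.77 and -0.65, adjusted p = 0.00234 and 0.00653, edgeR).

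Of the 4 genes of other inactivation routes, GAMT2, a gibberellin methyltransferase of seeds, was higher in all 4 comparisons, most on ET at 10 d (log2 4.11, adjusted p = 4.67e-08, edgeR), from 1.79 ± 0.37 CPM on E0 to 31.5 ± 3.33 CPM (SD, n = 3). CYP714A1, a cytochrome P450 that deactivates gibberellins, was lower in all 4 (log2 -6.67 to -1.91). CYP714A2 was higher in 3, all but EA at 5 d. The median of the 4 genes, with GAMT1 set to the floor where it had 0 counts, was 0.07 and 1.77 on ET and 0.62 and 0.15 on EA at 5 and 10 d. Of the 6 other oxidases, 5 were tested and GA20ox5 was not. On ET 1 was lower at 5 d and 2 were higher at 10 d, and on EA 4 were higher and 1 lower at 10 d. On EA at 5 d the smallest adjusted p of these genes by edgeR was 0.118. GA20ox4 and GA2ox3 held 0.257 to 0.316 and 0.455 to 0.534 CPM on EA at 10 d, and at most 0.166 and 0.176 CPM in any other group. They passed the filter on low counts through EA at 10 d, so they could hardly be called other than higher there. GA2ox4 was higher on ET and on EA at 10 d (log2 2.55 and 3.58, adjusted p = 0.000723 and 2.18e-05, edgeR). GA3ox4, the neighbour of GA3ox2 on chromosome 1 at a distance of 928 bp, was higher on ET at 10 d (log2 3.74, adjusted p = 0.00429, edgeR). Its means were 0.103 ± 0.134 CPM on E0 and 1.75 ± 1.14 CPM on ET (SD, n = 3). It passed the filter on low counts through ET at 10 d (0.573 to 2.85 CPM), so it could hardly be called other than higher there. GA3ox4 was also the one called lower on EA at 10 d, with 1 count on EA and only 0 to 0.254 CPM in the E0 libraries. GA3ox3, a 3-oxidase of siliques, had 0 counts on ET at 5 d and 1.49 ± 0.385 CPM on E0 (SD, n = 3). Against the floor over the 3 libraries this was at least 43.5-fold lower, for counting error only.

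Of the 8 receptor and DELLA genes, 3 were higher and 0 lower on ET at 5 d, and 3 higher and 2 lower at 10 d, with medians of 0.35 and 0.17 beside 0.07 and 0.01 over all tested genes. On EA 2 were higher and 3 lower at 5 d, and 5 higher and 0 lower at 10 d, with medians of -0.15 and 0.66 beside 0.02 and 0.09. Several of these counts are near the shares of all genes given above. RGL1, a DELLA repressor, was higher in all 4 comparisons, most on EA at 10 d (log2 2.36, adjusted p = 9.36e-09, edgeR), at 46.3 ± 5.20 CPM against 8.998 ± 0.73 CPM (SD, n = 3). The receptor genes GID1B and GID1C were lower on ET at 10 d (log2 -1.44 and -1.53, adjusted p = 0.000231 and 0.000759, edgeR). Of 7 other signalling genes, 1 was higher on ET at 5 d and 1 lower at 10 d, and 4 and 3 were higher on EA (medians 0.04, 0.07, 0.53 and 0.35). SNE, an F-box protein that acts on DELLA proteins, was higher in 3 comparisons, with log2 1.52 on ET at 5 d and 2.17 and 2.05 on EA at 5 and 10 d.

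Of the 8 genes of the GASA family, small cysteine-rich proteins several of which respond to gibberellin, 2 were higher and 3 lower on ET at 5 d, and 2 higher and 5 lower at 10 d. On EA 2 were higher and 2 lower at 5 d, and 3 higher and 4 lower at 10 d. The medians were -0.13, -1.29, -0.55 and -0.44 in these 4 comparisons, beside 0.07, 0.01, 0.02 and 0.09 over all tested genes. The 2 of 8 genes higher on ET at 5 d are close to the 23.8% of all genes. GASA6 was higher in all 4, most on ET at 10 d (log2 5.40, adjusted p = 7.13e-08, edgeR), where it stood at 206 ± 66.8 CPM against 4.91 ± 1.32 CPM on E0 (SD, n = 3). GASA1 was lower in all 4 (log2 -3.35 to -1.78). GASA3 had 0 counts in the 3 ET libraries at 5 d and 29.9 ± 9.46 CPM on E0. Against the floor over the 3 libraries this was at least 877-fold lower, for counting error only.

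**Figure D5:**
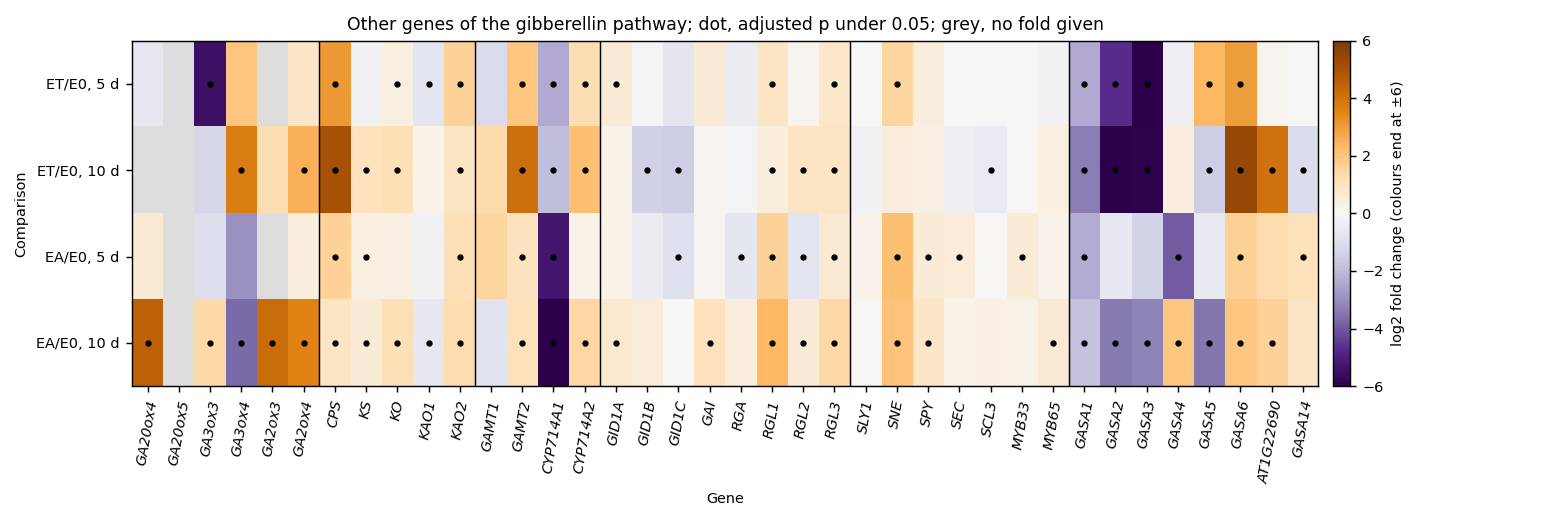
Log2 fold change against E0 (colour, ending at ±6) of the 38 other genes of the pathway on ET and EA at 5 and 10 d, with vertical lines between the lists of other oxidases, early synthesis, other inactivation, receptors and DELLA proteins, other signalling and the GASA family. Dots mark an adjusted p under 0.05, grey marks comparisons with no fold, and groups at 0 counts are set to the floor. CPS, GAMT2 and GASA6 are higher in all 4 rows and CYP714A1 and GASA1 lower.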

How the data were processed

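RNA of 18 libraries (3 for each of 6 combinations of medium and day) was depleted of ribosomal RNA and sequenced as paired reads of 76 bases. The authors trimmed the reads, removed ribosomal RNA reads, aligned the rest to TAIR10 with STAR and deposited counts of uniquely aligned reads per gene, not normalized. Reads shared by similar genes are thereby lost. Tool versions, the strand setting and the annotation release were not given in the sources used here, so reads of antisense transcripts could not be told apart.

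From the counts, edgeR 4.0.16 in R 4.3.3 kept 23539 of 34218 genes (filterByExpr), scaled libraries by TMM and fitted 1 quasi-likelihood model over all 18 libraries with a mean per group. The study's own tool was DESeq2. Adjustment over all tested genes followed Benjamini-Hochberg, with calls under 0.05. The SE was the log2 fold change divided by the square root of F. P-values measure the spread between these libraries of pooled explants. Library totals ranged from 9098758 to 58364735 counts. Counting ratios have exact binomial intervals at 95%, which cover counting error only. Log2 CPM used a prior count of 2. The fit was tested on simulated data. Positions, exon lengths and promoters (300 bases before the start) came from RefSeq's TAIR10.1, where 32548 of the listed locus codes were found. All 10 members are named, and for each tested one the 2 genes with the highest Pearson r of log2 CPM, except that those of GA2ox6 are not reported here. Of the 38 other pathway genes, those with the largest change of a list were to be named, and the rest were chosen after their values were seen. The members and lists were chosen with earlier results of these data known. Alternatives were DESeq2 1.42.0, its size factors, library totals, no filter, only the groups compared, a fold threshold, a replicate block, depth as a covariate and each library left out.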

Additional observations from a re-analysis of the deposited data

Results flagged for a closer look

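For 4 genes the difference between ET and E0 was not the same at 10 d as at 5 d, by an interaction term in edgeR (quasi-likelihood, Benjamini-Hochberg adjustment over all tested genes). The change of the ET effect was log2 2.53 for GA20ox1 (adjusted p = 0.0354), 0.95 for GA20ox3 (adjusted p = 0.0103), -1.77 for GA2ox2 (adjusted p = 0.0449) and 1.46 for GA2ox6 (adjusted p = 0.0359). Relative to E0, GA20ox1, GA20ox3 and GA2ox6 moved upward and GA2ox2 downward. Between the days on ET itself, only GA2ox6 of these 4 genes was called (log2 1.67, adjusted p = 0.00189, edgeR). The change of the ET effect for GA20ox3 was called in 19 of 19 alternatives, and not where a log2 difference of 1 or more in size was also required. Those of GA20ox1, GA2ox2 and GA2ox6 were called in 7, 8 and 10 of the 19.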

How the results depend on the processing

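Of 781 member values under the alternatives other than leaving out a library, 742 kept their side of the threshold, 21 lost a call and 18 gained one. With a library left out, these were 633, 58 and 11 of 702. The sign changed in 9 and 25 of these values, none of them called in either fit. A called value was reversed in 0 cases. The number of genes called for ET against EA at 5 d, 2 with all libraries, was 1 with only the groups compared and 0 by edgeR where a log2 difference of 1 or more in size was also required. Between 5 and 10 d on E0, 2 genes were called, and 1 with DESeq2's size factors, with no filter, with the fold threshold and with depth as a covariate, and 5 with only the groups compared. On EA, 2 were called, and 4 by DESeq2. For the ET effect at 10 d against 5 d, 4 were called, and 2 with the replicate block and 2 with depth as a covariate. With a library left out the counts ran from 5 to 7 and 5 to 6 for ET against E0 at 5 and 10 d, 5 to 5 and 5 to 7 for EA against E0, 1 to 2 and 2 to 4 for ET against EA, 1 to 1, 1 to 3 and 1 to 2 between the days on E0, ET and EA, 1 to 3 for the ET effect and 0 to 1 for the EA effect. Library totals in place of TMM moved the median of all genes from 0.02 to 0.24 and from 0.09 to 0.23 for EA against E0, and from 0.06 to -0.19 and -0.04 to -0.21 for ET against EA, at 5 and 10 d.

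The letters were not taken as a pairing, since no comparison had a correlation of deviations above 0.1 in all 3 same-letter pairs. In EA against E0 at 10 d (r = 0.117, 0.112 and 0.0348) and in EA between the days (r = 0.181, 0.0402 and 0.134) every library nevertheless correlated best with its own letter, a hint from the data and not from the design. With the replicate block 3 genes were called for ET against EA at 5 d and 3 in EA between the days, where GA20ox2 was gained (log2 -2.15, adjusted p = 0.0395, edgeR). GA20ox1 and GA2ox2 lost the call for the ET effect (adjusted p = 0.051 and 0.0544), and GA2ox1 that for ET against EA at 10 d (adjusted p = 0.0617). Shares per kb with the longest transcript moved beyond the SD in 2 of 60 cases, both of GA2ox2 (EA at 5 d and ET at 10 d). GA3ox1, GA3ox2, GA2ox1 and GA2ox7 lay near the counting floor in part of the libraries, which limits their fold changes.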
